A study of Homo sapiens with 2 samples.

Results

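RNAs of the HSP90 chaperone family were measured in Huh-7, a line derived from a human liver carcinoma, in an immunoprecipitation (IP) of an RNA-binding protein and in the matching input. The family was taken by gene symbol and held 4 genes, HSP90AA1, HSP90AB1, HSP90B1 and TRAP1, of the 25556 genes in the deposited table. They were chosen by their measured values in these libraries, namely their IP/input ratios and deposited peaks, which are therefore given as a description. All 4 passed the minimum used here, a mean of at least 1 RPKM (reads scaled to the exon length of the gene and to the reads of the library) over both libraries. In RNA immunoprecipitation sequencing (RIP-seq), the RNA that comes down with a protein is sequenced beside RNA of the whole lysate. The series had 1 IP library and 1 input library, both from cells labelled wild type and grown with no treatment. Per the design text, 10% of the lysate went to the input and 90% to the IP. The IP carried the treatment label SPSF7 and the input the label none. The study's design text gives an antibody against the splicing factor SRSF7, whereas the protocol of both samples gives one against the m6A reader YTHDF2, applied to poly(A) RNA, so that the libraries are called only IP and input here. Reads assigned to genes, summed over all genes, numbered 5897293 in the IP and 2782045 in the input. Some entries had equal counts, such as RN7SK and AL162581.1 with 60082 input reads each, so reads may enter these sums more than once. All 8 hepatocyte and hepatoma markers examined were detected, at 51.2 to 1613 RPKM in the IP and 26.4 to 2814 RPKM in the input. Of 13 markers of other cell types, 11 were listed, with a summed level of 655 RPKM in the IP and 1035 RPKM in the input, led by the beta-globin gene HBB at 467 and 738 RPKM, and 3 were below 1 RPKM in both libraries; their part in the results was not tested.

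HSP90 proteins are ATP-driven dimers that bind and mature client proteins such as kinases and steroid hormone receptors. An N-terminal ATP-binding domain, a middle domain and a C-terminal dimerization domain are shared by the family, and the cytosolic and endoplasmic reticulum members carry between the first and the middle domain a charged linker rich in glutamate and lysine, which TRAP1 lacks. HSP90AA1 encodes the stress-inducible cytosolic form, HSP90AB1 the constitutive cytosolic form, HSP90B1 the endoplasmic reticulum form (GRP94) and TRAP1 the mitochondrial form. Hepatocytes secrete large amounts of protein and hold abundant chaperones of the endoplasmic reticulum.

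The 4 genes lie on different chromosomes. In the deposited coordinates, HSP90AA1 spans chr14:102080742-102139699 on the minus strand, HSP90AB1 chr6:44246166-44253888 on the plus strand, HSP90B1 chr12:103930107-103953645 on the plus strand and TRAP1 chr16:3651639-3717553 on the minus strand. The build is not named by the sources used here. At least 1 gene end was identical to that of RefSeq on GRCh38.p14 for 74.7% of 14834 protein-coding genes matched by symbol, and the coordinates are read as that build.

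Heat shock elements are repeats of the unit GAA in alternating orientation, to which the factor HSF1 binds, and they are shown because they are the known control sequences of heat shock genes. Among 7 RefSeq promoter windows of the members on GRCh38.p14, from 250 bases upstream to 50 bases downstream of a start, 2 held a match to 3 units (TTCNNGAANNTTC or GAANNTTCNNGAA, which are each other's reverse complement). These were 1 window of HSP90AA1 and 1 of HSP90AB1, and no match was in the windows of HSP90B1 and TRAP1. Of all 35116 such windows, 0.490% held one. The stretches below run 5′ to 3′ on the gene strand, with the matches in capitals:
HSP90AA1, chr14:102087110-102087142, minus strand: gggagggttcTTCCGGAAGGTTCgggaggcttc
HSP90AB1, chr6:44247768-44247853, plus strand: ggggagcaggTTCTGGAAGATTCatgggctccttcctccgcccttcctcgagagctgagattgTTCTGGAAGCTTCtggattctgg
The HSP90AA1 match began 88 bases upstream of the RefSeq start around which its window was set. The first of the HSP90AB1 matches began 165 bases upstream of its own such start. Both stretches lay outside the merged exons, with 0 exonic bases, and thus outside the bases over which reads were counted. The matches describe these letters and are no measurement of the IP or the input.

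The RNAs of HSP90AA1, HSP90AB1 and HSP90B1 were more than 2-fold higher in the IP than in the input, and TRAP1 was higher by less. HSP90AA1 had 1555 RPKM in the IP and 572 RPKM in the input, from 46747 and 8108 reads. Its IP/input ratio was 2.72, with an exact 95% interval from 2.66 to 2.79. The constitutive HSP90AB1 had 1796 RPKM in the IP and 791 RPKM in the input, from 31564 and 6561 reads, a ratio of 2.27 (2.21 to 2.33). HSP90B1 had 2390 RPKM in the IP and 900.4 RPKM in the input, from 66169 and 11761 reads, a ratio of 2.65 (2.60 to 2.71). TRAP1 was far less abundant, with 12.4 RPKM in the IP and 6.80 RPKM in the input, from 379 and 98 reads, a ratio of 1.82 (1.46 to 2.30). With 1 library per group there is no replicate and no test of these differences. The intervals cover counting error only. For the level of a gene within a bulk library, fewer cells with a transcript and less of it per cell cannot be told apart. Among non-zero counts under 20, 76.8% in the IP and 76.7% in the input were even. If each pair of mates entered as 2 reads, the intervals are too narrow, and with a pair as the unit that of TRAP1 was 1.32 to 2.55.

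**Figure D1:**
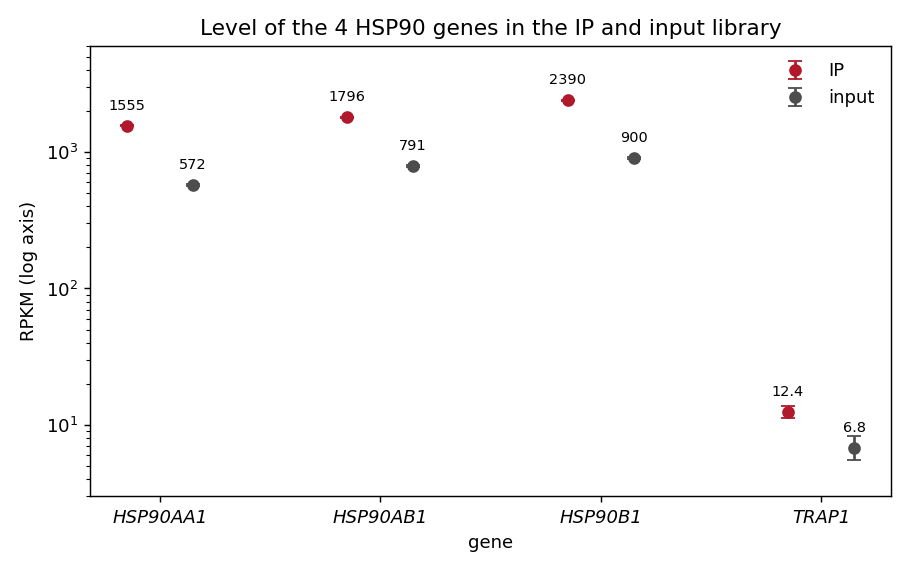
Level of each gene in the IP (red, left) and the input (grey, right), in RPKM on a log axis; bars are exact Poisson 95% intervals of the read counts and are mostly smaller than the points. Each gene is higher in the IP, and TRAP1 lies at 12.4 and 6.80 RPKM, far below the other 3.

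On the scale of log2((IP RPKM + 1)/(input RPKM + 1)), 3 of the 4 members exceeded 2-fold toward the IP, as did 11.3% of the 14057 genes tested, and 0 exceeded it toward the input, as did 8.25% of these genes. The members' median log2 ratio was 1.29 and that of all genes 0.14. HSP90AA1 stood at 1.44, rank 682 of the genes tested, HSP90B1 at 1.41, rank 712, HSP90AB1 at 1.18, rank 1072, and TRAP1 at 0.78, rank 2499. With the genes split into 3 equal classes by merged exon length, all 4 members lay in the middle class (2246 to 5327 bases), in which 7.07% of genes were past 2-fold toward the IP and 4.55% toward the input. In the short class these shares were 17.2% and 18.9%, and in the long class 9.67% and 1.28%. The members were chosen with these ratios known, so the count describes them and tests nothing. With each library scaled to its reads in protein-coding genes, HSP90AB1 was below 2-fold, at a log2 ratio of 0.79, and HSP90AA1 and HSP90B1 were above it, at 1.05 and 1.02, while the median of all genes moved to -0.16. In that scaling 5.64% of the genes tested were past 2-fold toward the IP.

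**Figure D2:**
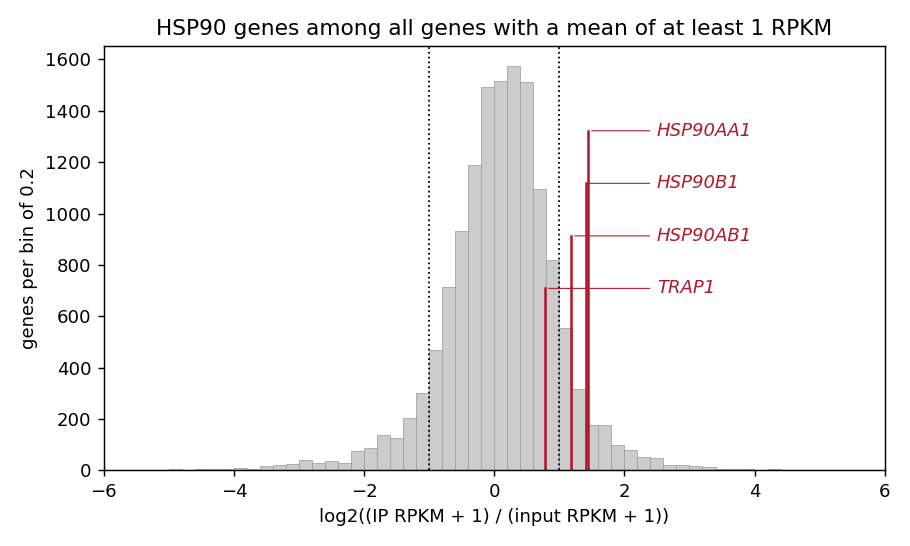
Number of genes per bin of 0.2 of log2((IP RPKM + 1)/(input RPKM + 1)), for the 14057 genes tested, with values beyond -5 or 5 counted in the end bins; red lines mark the 4 HSP90 genes and dotted lines a 2-fold difference. TRAP1 at 0.78 lies inside the dotted line and the other 3, at 1.18 to 1.44, beyond it.

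The family took up 2.46% of the reads summed over all genes in the IP (exact binomial interval 2.44 to 2.47%) and 0.954% in the input (0.942 to 0.965%). Reads that may enter these sums more than once were not taken out. HSP90B1 was the gene with rank 2 by reads in the IP and rank 12 in the input, HSP90AA1 had ranks 4 and 19, HSP90AB1 ranks 11 and 27, and TRAP1 ranks 2724 and 4040. By RPKM the order in both libraries was HSP90B1, HSP90AB1, HSP90AA1 and TRAP1, and no neighbouring intervals overlapped. If reads over MIR3652, a microRNA gene nested in HSP90B1, were counted for both genes, 8461 of the 11761 HSP90B1 input reads are left. The ranks and the RPKM order without them were not computed, and the input order may differ. By reads HSP90AA1 came before HSP90AB1 in both. RPKM divides by merged exons, which were 5097 bases for HSP90AA1 and 2980 bases for HSP90AB1 and count parts that single transcripts do not hold.

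The makeup of the family's reads, which no scaling between the libraries can change, was led by HSP90B1 in IP and input alike. HSP90B1 supplied 45.7% of the family's IP reads and 44.3% of its input reads, HSP90AA1 32.3% and 30.6%, HSP90AB1 21.8% and 24.7%, and TRAP1 0.262% and 0.369%. Less the reads counted for MIR3652, HSP90B1 had 52656 IP and 8461 input reads, beside 46747 and 8108 for HSP90AA1, so its lead in the input was then small. The IP/input ratio of HSP90AA1 was 1.20 times that of HSP90AB1 (normal-approximation 95% interval from counting error 1.16 to 1.24). The ratios of HSP90AA1 and HSP90B1 were not separated at this depth, with a quotient of 1.02 (0.994 to 1.06). Without the reads counted for MIR3652, a microRNA gene nested in HSP90B1, this quotient was 0.926 (0.896 to 0.957), which puts HSP90B1 above HSP90AA1. The ratio of HSP90AB1 was 0.855 times that of HSP90B1 (0.827 to 0.884). Against TRAP1, with its 98 input reads, the quotient was 1.49 for HSP90AA1 (1.19 to 1.86), 1.45 for HSP90B1 (1.16 to 1.82) and 1.24 for HSP90AB1 (0.995 to 1.56).

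Pseudogenes of the family took few reads. Of 13 listed HSP90 pseudogenes 11 were in the table, with 488 reads in the IP and 115 in the input in all, 0.337% and 0.434% of the number of reads of the members. HSP90AA2P, a retrocopy of HSP90AA1, was the most abundant at 18.1 RPKM in the IP and 5.07 RPKM in the input, a ratio of 3.58 (2.45 to 5.38). HSP90AA6P had 14 IP and 2 input reads, HSP90AB4P 29 and 4, HSP90AB2P 67 and 26, HSP90AB3P 56 and 26, and HSP90B2P 47 and 18. The other 5 stayed below a mean of 1 RPKM: HSP90AA4P and HSP90B3P had 18 and 8 IP reads and 0 input reads, HSP90AB6P 8 and 2, HSP90AA5P 4 and 4, and HSP90AB7P 2 and 2. The sources used here do not say how reads that match a gene and its copy were assigned, so these counts are uncertain, and the same holds for reads that match both HSP90AA1 and HSP90AB1.

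A microRNA gene nested in the first exon of HSP90B1 gave a separate count for that end of the transcript. MIR3652 occupies chr12:103930425-103930555, 131 bases that all lie in the first merged exon, on the same strand. Coverage by base was not available, so whether the reads listed under its name cover its mature sequence is not known. That sequence in RefSeq is shown because it lies within the 131 bases, with the seed, bases 2 to 8, in capitals:
hsa-miR-3652: cGGCUGGAggugugagga
The table listed 13513 reads for MIR3652 in the IP and 3300 in the input, 20.4% and 28.1% of the number counted for HSP90B1, over 2.79% of its exon bases. Reads of the microRNA precursor and of HSP90B1 exon RNA cannot be told apart there. The IP/input ratio over these 131 bases was 1.93 (1.86 to 2.01), lower than the 2.65 of the whole gene. If the same reads were counted for both genes, 52656 IP reads and 8461 input reads are left for the rest of HSP90B1, whose ratio is then 2.94 (2.87 to 3.00).

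Genes on the opposite strand also share exon bases with members. C12orf73 shares 546 bases with HSP90B1, in exons 10, 11 and 18, and had 716 IP and 205 input reads, 1.08% and 1.74% of the number of HSP90B1. DNASE1 shares 1531 bases with TRAP1, 29.5% of the merged exons of TRAP1, and had 396 IP and 97 input reads beside the 379 and 98 of TRAP1. The DNASE1 ratio was 1.93 (1.54 to 2.43). The library kit was stranded per the labels, but the sources used here do not say whether counting used strand, so TRAP1 and DNASE1 reads cannot be told apart. WDR20 shares 197 bases with the first exon of HSP90AA1 and had 56 IP and 45 input reads, and TTC41P shares 105 with the first exon of HSP90B1 and had 0 and 2. On the same strand, AC006111.2 shares 65 bases with the last exon of TRAP1 and had 8 IP and 0 input reads.

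Of the 7643 peaks that the authors deposited, 12 lay in the 4 genes. HSP90AB1 had 6, HSP90B1 3, HSP90AA1 2 and TRAP1 1. A peak was present in 4 of 4 members and in 21.4% of the genes tested. The series given here holds no further library, so the peaks are not counted as a replicate of the ratios. They covered 29.4% of the merged exon bases of HSP90B1, 20.3% of HSP90AB1, 13.6% of HSP90AA1 and 1.47% of TRAP1, where the median gene with a peak had 5.54%. Folds and p-values in what follows are those of the authors' deposited table.

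Both HSP90AA1 peaks lay in the middle of the transcript. The broader, chr14:102084507-102085397, covered 592 exonic bases of merged exons 5 and 6 counted from the 5′ end (positions 1652 to 2243 of 5097), and the authors' deposited table gave it a fold of 2.51 and a p-value listed as 0. The narrower, chr14:102083200-102083300, covered 101 bases of exon 9 (positions 3048 to 3148), with a fold of 2.13 and p = 1.57e-66 in the authors' deposited table. No peak was listed in exons 1 to 4 or in exons 10 and 11.

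The 6 HSP90AB1 peaks fell in an inner group of 3 and a 3′ group of 3. The inner peaks, chr6:44250041-44250116 in exon 7, chr6:44250427-44251075 in exons 8 and 9 and chr6:44251832-44252096 in exons 11 and 12, covered 76, 201 and 151 exonic bases. Their folds in the authors' deposited table were 2.26, 2.25 and 2.19, with p of 2.71e-190, 3.29e-189 and 1.16e-71. The 3′ peaks, chr6:44253323-44253508 across exons 13 and 14 and chr6:44253583-44253633 and chr6:44253658-44253708 in exon 14, the last, covered 76, 51 and 51 bases. The authors' deposited table gave them folds of 2.16, 2.15 and 2.46 and far larger p of 1.87e-05, 0.000292 and 0.00128.

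HSP90B1 carried 2 peaks between exons 3 and 10 of 18 and 1 at its 3′ end, and none over MIR3652. Its peak at chr12:103932302-103932834 covered 126 bases of exons 3 and 4, and that at chr12:103937704-103941463 covered 503 bases of exons 6 to 10. In the authors' deposited table they had folds of 2.23 and 2.25, with p of 1.04e-163 and 1.88e-149. The 3′ peak, chr12:103946686-103953555, covered 752 bases of exons 14 to 18 (positions 3854 to 4605 of 4695), with a fold of 2.84 and a p-value listed as 0 in the authors' deposited table. Its fold was the highest of the 12. It lay above the whole-gene ratio of 2.65 and below the ratio of 2.94 that HSP90B1 had without the reads counted for MIR3652.

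The single TRAP1 peak, chr16:3661989-3662064, covered 76 bases of exon 21 of 24. The authors' deposited table gave it a fold of 2.83, p = 0.0257 and a false discovery rate of 0.0623, and it is lost at a rate of at most 0.05. A peak of DNASE1 on the opposite strand overlapped TRAP1 exons by 47 bases, and one of C12orf73 overlapped the last exon of HSP90B1 by 195 bases.

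**Figure D3:**
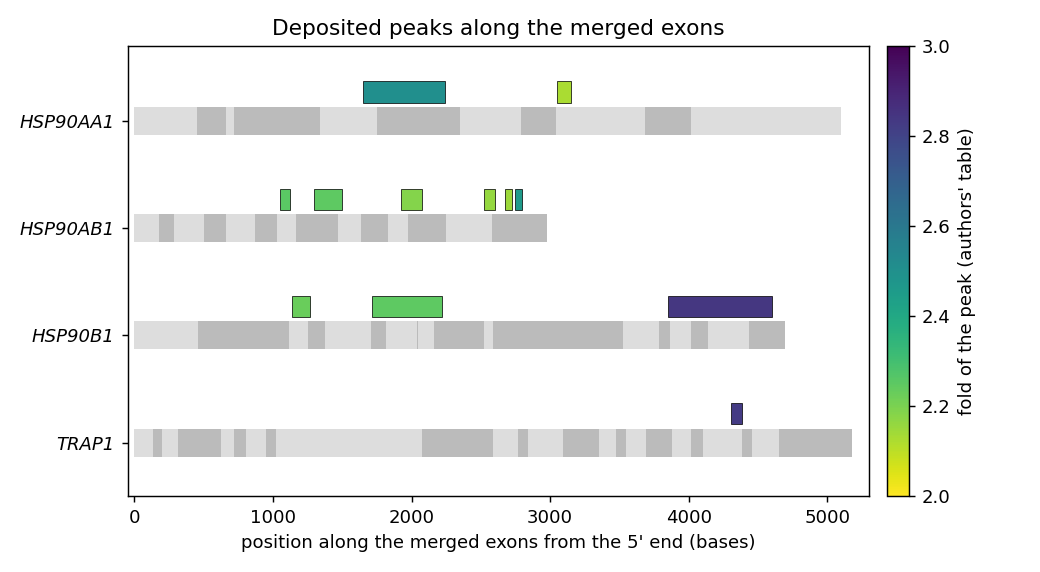
Deposited peaks (boxes above each gene, coloured by the authors' fold) along the merged exons (alternating grey blocks) from the 5′ end, in bases, for the 4 genes. HSP90AA1 and HSP90AB1 have inner peaks, HSP90AB1 and HSP90B1 also peaks near the 3′ end, and TRAP1 1 short peak.

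Placed by their centres along the merged exons, 0, 3, 2, 2 and 5 of the 12 peaks fell in 5 equal stretches from 5′ to 3′. Over all 7643 peaks those stretches held 24.1%, 24.5%, 23.2%, 18.0% and 10.2%. Of the members' peaks, the last stretch held the 3′ group of HSP90AB1, the 3′ peak of HSP90B1 and the TRAP1 peak. The 3′ group of HSP90AB1 had the largest p-values of that gene, and the TRAP1 peak a false discovery rate of 0.0623. Peak bases lay mostly in exon parts listed more than once, that is, in several annotated transcripts. At least 2 listed exons covered 83.3% of the peak bases of HSP90AA1 and 66.4% of its other exon bases, 100% and 82.1% in HSP90AB1, 79.7% and 52.9% in HSP90B1, and 100% and 47.3% in TRAP1.

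The inner peaks of the 2 cytosolic paralogs sat in corresponding exons. HSP90AA1 and HSP90AB1 had 7 exons of equal length in the same order, 1402 bases in all, and between them a further pair of 318 and 309 bases. The other pairs of members had 1 to 3 exons of equal length in order, and no exon match was made for them. Numbering the 8 pairs from the 5′ end, HSP90AA1 had peak bases in pairs 2, 3, 4 and 7, and HSP90AB1 in those 4 and in pairs 6 and 8. In pair 2, of 134 bases, the peak covered bases 35 to 134 in HSP90AA1 and 21 to 96 in HSP90AB1. In pair 3, of unequal length, it covered all 318 bases in HSP90AA1 and the last 173 in HSP90AB1. In pair 4, of 166 bases, the peak ended at base 58 in HSP90AA1 and at base 28 in HSP90AB1. In pair 7, of 269 bases, it covered bases 3 to 103 in HSP90AA1 and 1 to 98 in HSP90AB1. Over the exons of equal length, 186 bases were in a peak of both genes, 71.8% of the 259 peak bases of HSP90AA1 and 59.8% of the 311 of HSP90AB1. Peaks of HSP90AA1 covered 18.5% of all 1402 bases of these exons, and peaks of HSP90AB1 22.2%. This match of exons was made after the peak positions were seen. Both paralogs derive from a common gene, and reads that fit both may enter both counts, whose part here was not tested.

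**Figure D4:**
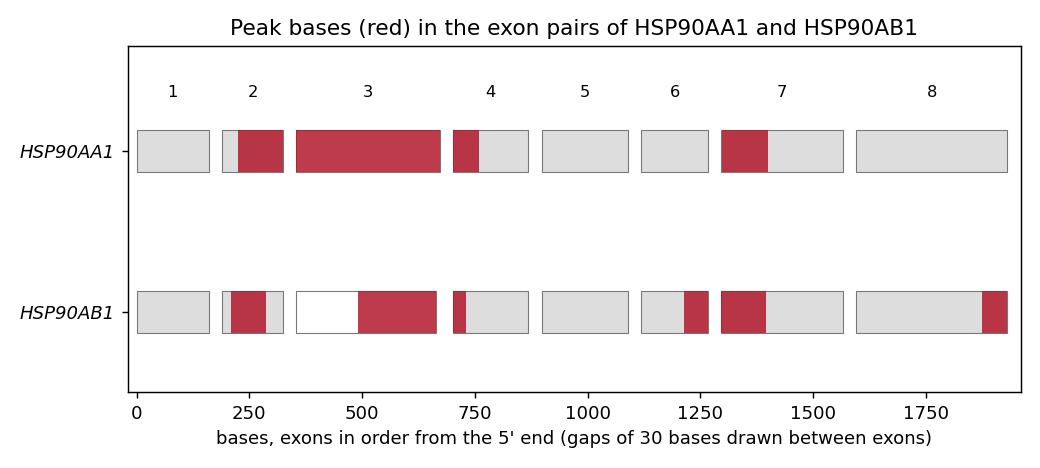
The 8 exon pairs of HSP90AA1 (above) and HSP90AB1 (below), in order from the 5′ end and drawn to scale in bases, with the bases inside a deposited peak in red; grey exons have equal length in both genes and the white pair 318 and 309 bases. Peak bases appear in both genes in pairs 2, 3, 4 and 7.

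The folds of the members' peaks in the authors' deposited table ran from 2.13 to 2.84 with a median of 2.25, against a median of 2.71 over all peaks, and 10 of the 12 lay below that median, the exceptions being the TRAP1 peak and the 3′ peak of HSP90B1. Of the 12, 8 were among the 100 peaks with the smallest p, and 2 of the 7 peaks whose p is listed as 0 were members'. The fold of 9 of the 12 peaks was below the IP/input ratio of their own gene, compared with 21.0% of all peaks. These 9 were both HSP90AA1 peaks, 5 of the 6 HSP90AB1 peaks and 2 of the 3 HSP90B1 peaks. Without the reads counted for MIR3652 all 3 HSP90B1 peaks, and so 10 of the 12, were below. No deposited fold was below 2.00, so only a peak in a gene with a ratio above that could lie below its gene's ratio. HSP90AA1, HSP90AB1 and HSP90B1 all had such ratios and were chosen with them known. The comparison with the 21.0% of all peaks therefore tests nothing. The sources used here do not say how the authors scaled the folds. A further count took genes with at least 5000 input reads, a limit set after seeing the values. There 73.7% of 19 peaks had a fold below the ratio of their gene, and 62.5% of the 8 that belong to no member. Apart from IGF2, the genes of these 19 peaks were all past 2-fold toward the IP, so depth and gene ratio cannot be told apart here. The part of either in the count was not tested.

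**Figure D5:**
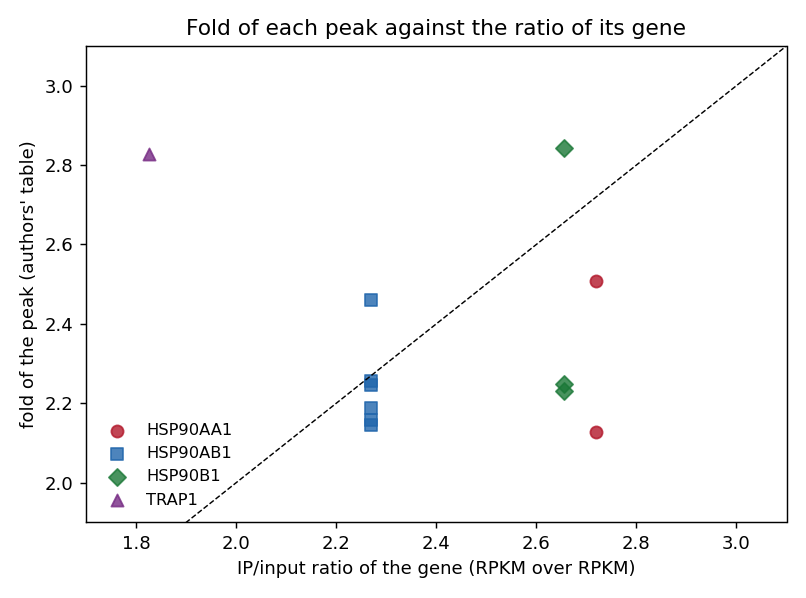
Fold of each of the 12 peaks in the authors' deposited table (vertical axis) against the IP/input ratio of its gene (horizontal axis), with the line of equality dashed. For HSP90AA1, HSP90AB1 and HSP90B1, 9 of 11 peaks lie under the line, and the TRAP1 peak lies above it.

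The median log2 ratios of the lists of HSP90 partners lay between 0.06 and 0.41, and that of all genes tested was 0.14. Of all genes tested, 11.3% were past 2-fold toward the IP and 8.25% toward the input. Of 31 genes for cytosolic co-chaperones, which load clients or pace the ATPase cycle, 2 were past 2-fold toward the IP and 1 toward the input, with a median log2 ratio of 0.26. On this log2(RPKM + 1) scale the highest was CDC37, which recruits kinases to HSP90, with 464 RPKM in the IP and 223 RPKM in the input, a ratio of 2.08 (1.98 to 2.19). Lowest was PPID, a cyclophilin that binds the C terminus of HSP90, with 31.2 and 71.0 RPKM, a ratio of 0.439 (0.386 to 0.4998). STIP1 (HOP), which hands clients from HSP70 to HSP90, was the other past 2-fold on that scale, at a ratio of 2.06 (1.86 to 2.29). By the plain ratio, 3 less abundant co-chaperone genes stood above CDC37, namely FLCN at 2.96 (1.95 to 4.66), FNIP2 at 2.39 (1.84 to 3.13) and PPP5C at 2.20 (1.76 to 2.77), and CHORDC1 was also below 0.5, at 0.487 (0.412 to 0.575). Among 10 cytosolic HSP70 partners 2 were higher and 0 lower, with a median of 0.30. The 2 were HSPA1B and DNAJB1, an HSP40 co-chaperone with a ratio of 2.35 (2.09 to 2.66). The list ran from BAG2 at a ratio of 0.666 (0.496 to 0.899) to HSPA1B at 2.67 (1.95 to 3.72), whose reads are uncertain because HSPA1A is nearly identical.

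Partners in the endoplasmic reticulum and in mitochondria included 1 gene past 2-fold toward the IP. The shares over all genes tested were 11.3% toward the IP and 8.25% toward the input, with a median log2 ratio of 0.14. For the 12 endoplasmic reticulum partners of HSP90B1 the count was 0 higher and 0 lower and the median log2 ratio 0.41. CNPY3, a co-chaperone of HSP90B1 for Toll-like receptors, was highest with 48.8 RPKM in the IP and 24.5 RPKM in the input, a ratio of 1.996 (1.63 to 2.46), and SDF2L1 lowest at 0.620 (0.424 to 0.910). Calreticulin, CALR, had 2121 RPKM in the IP and 1418 RPKM in the input, beside 2390 and 900.4 RPKM for HSP90B1. Its ratio was 1.496 (1.46 to 1.53). Of 10 mitochondrial partners of TRAP1, with a median of 0.06, 1 was higher and 1 lower. These were the protease gene LONP1 at 2.63 (2.29 to 3.03) and SDHB, the iron-sulphur subunit of succinate dehydrogenase, at 0.454 (0.326 to 0.631). HSF1, the activator of heat shock genes, had 5.18 RPKM in the IP and 2.57 RPKM in the input, a ratio of 2.01 (1.41 to 2.94). HSF2, the other heat shock factor listed, had 2.39 RPKM in the IP and 4.26 RPKM in the input, a ratio of 0.560 (0.341 to 0.926), and the median log2 ratio of the pair was 0.08. Of 18 client genes tested 0 were higher and 0 lower, with a median of 0.12. On the log2(RPKM + 1) scale they ran from CDK4 at 0.700 (0.612 to 0.802) to the receptor kinase gene ERBB3 at 2.01 (1.76 to 2.29), whose log2 value was 0.94. By the plain ratio NR3C1, the glucocorticoid receptor gene, was lowest among those with at least 100 reads, at 0.696 (0.494 to 0.985).

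The gene nearest in level to each abundant member was no member. By distance in log2(RPKM + 1) over the 2 libraries, the 3 genes nearest to HSP90AA1 were H1-4 (0.27), NCL (0.37) and HSP90AB1 (0.51). For HSP90AB1 they were H1-2 (0.39), HSP90B1 (0.45) and HSP90AA1 (0.51), and for HSP90B1 they were PTMA (0.41), HSP90AB1 (0.45) and H1-2 (0.51). TRAP1 was nearest to SPAG9 (0.02), with AC106820.5 and AP003392.3 next. HSP90AA1 and HSP90B1 were 0.90 apart and not among each other's nearest 3. Nearness in level did not mean an equal ratio: H1-2 had an IP/input ratio of 1.66 and NCL one of 3.87.

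Among the most deeply read genes the 3 abundant members stood with few others. Of the 34 genes with at least 5000 input reads, the same limit as above, 5 were past 2-fold toward the IP (14.7%) and 8 toward the input (23.5%). The 5 were HSP90AA1, HSP90AB1, HSP90B1, the nucleolin gene NCL and the prothymosin gene PTMA. These 5 and IGF2 were the 6 of the 34 with a deposited peak (17.6%). The 8 include RN7SL1, RN7SL2 and RN7SK, and some entries had equal counts. RN7SK and AL162581.1 both had 13037 IP and 60082 input reads, and RN7SL2 and AL627171.2 both had 165992 input reads. With such entries and the members among the 34, these shares are no background independent of the family. PTMA had 2567 RPKM in the IP and 1186 RPKM in the input with 3 peaks, and NCL had 1793 and 463 RPKM with 4 peaks.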

How the data were processed

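Per the submitters' processing notes, the tools were Trimmomatic, a read trimmer, and STAR 2.5.3a, an aligner. For the counter, annotation, peak caller and build, the sources used here name none. Paired reads came from a stranded kit with unique molecular identifiers, per the labels' design text. The gene values deposited by the authors are RPKM, judged from the values, since the products of value and exon length add up alike in the 2 columns. Whole reads were recovered from them, within 1e-09 of a read, and used for depth and intervals, without a count model. Columns of other samples numbered 0. The peak table holds, per the file headers, a score, which was not used, a fold (ratio), and a p-value with its false discovery rate, all deposited by the authors.

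The ratio is IP over input RPKM, with an interval from the exact binomial interval of IP reads among both. Counts past 2-fold use log2(RPKM + 1). Peaks were assigned to the gene with most exonic overlap on their strand (at least 1 base). Intervals of quotients of ratios use a normal approximation on the log scale. Members, lists and rules were chosen with earlier results of these data known. The named genes were all members, their pseudogenes and peaks, the genes with the highest and lowest log2(RPKM + 1) ratio of each partner list among those with at least 100 reads, and the 3 genes nearest to each member; CALR, STIP1, DNAJB1, FLCN, FNIP2, PPP5C, CHORDC1, HSF2, NR3C1, HBB, IGF2, the genes that overlap members and the exon match were added after values were seen. Other scalings, pseudocounts, filters and peak limits were tried. The interval was tested on simulated data with independent Poisson counts. Mates counted in pairs were not simulated, so that test cannot speak for such counts. The software was scipy 1.17.1, numpy 2.4.6, matplotlib 3.10.9 and pandas 2.3.3 under Python 3.11.15.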

Additional observations from a re-analysis of the deposited data

How the results depend on the processing

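Centring on the median of all genes gave log2 ratios of 1.30 for HSP90AA1, 1.04 for HSP90AB1 and 1.27 for HSP90B1, and scaling to protein-coding reads gave 1.05, 0.79 and 1.02, with 0.42 for TRAP1. Scaling to the same RPKM sum gave 2.70, 2.44, 2.66 and 1.98, with the median of all genes at 1.21. The number of members at least 2-fold higher was 3 as reported and with centring, other pseudocounts or pseudogene reads added, 2 with protein-coding scaling and 4 with equal sums. Of all genes tested, 11.3% were that much higher as reported, 8.37% with centring, 5.64% with protein-coding scaling and 60.6% with equal sums. With pseudocounts of 0.1 and 0 the share was 16.9% and 17.7%. Taking out the MIR3652 reads, an alternative chosen after seeing the data, gave 1.55 for HSP90B1 and turned its quotient with HSP90AA1, as reported. At p of at most 1e-10, HSP90AB1 kept 3 peaks; TRAP1 kept 0, with 0% of its bases covered, there and at a false discovery rate of at most 0.05. The cause of these shifts was not tested. Of the values compared, quotients apart, 43 were labelled as within their limits, 17 moved and 0 turned direction. The 43 include the changes of the number of members from 3 to 2 and to 4. They also include the checks with a pair of mates as the unit, which alter the interval and cannot move the ratio. The tally therefore does not measure how stable the results are. With pseudocounts of 0.1 or 0, each member stayed within its counting interval, as did the 3 members with pseudogenes when those reads were added. Densities of sequence motifs in exons were not computed, since no sequence of the exons was used here. No paired analysis was possible because each group has 1 library. TRAP1, with 98 input reads, is limited by depth.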
